A study of Mus musculus with 97 samples.

Results

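Coa5, Fdx2 and Tmem65 encode mitochondrial proteins, and they are 3 of the 19962 genes measured in captured regions of mouse brain. They were selected on one measured value, their probe reading, which lay above the combined negative probe, a probe set without a target in the mouse genome that measures background. Their level over that probe is therefore a description and was not tested. All 3 were found in the deposited table, and their values are given over all 12 groups of genotype, treatment and brain region.

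The measurements came from the NanoString GeoMx Digital Spatial Profiler with a whole-transcriptome probe panel, in which ultraviolet light frees probe tags from a chosen region of a tissue section and the tags are counted by sequencing. Each of the 97 libraries is 1 captured region, 48 of hippocampus and 49 of cortex, from older mice in which a human APOE allele, APOE4 or APOE3, was knocked in. The study asked how the APOE allele and combined chemotherapy alter metabolic and neuroprotective genes. DD mice were given docetaxel (10 mg/kg a week) together with doxorubicin (3 mg/kg a week), DC mice were given cyclophosphamide (40 mg/kg a week) together with the same dose of doxorubicin, and vehicle mice received equal parts of dimethyl sulfoxide and phosphate-buffered saline. All injections were intraperitoneal, 2 times a week for 2 weeks, and every mouse carried a human APOE allele, so no group had the mouse gene alone. The 12 groups had 8 libraries each, except APOE3 DD cortex with 9. The labels do not tie regions to animals, so regions of a group may come from one animal, in which case p-values computed over regions are too small. Libraries of a group mostly sat in neighbouring wells, with 2 libraries in 48 of 49 such runs. Estimated over the tested genes, the correlation within a run was 0.247 in cortex, 0.151 in hippocampus and 0.189 over both regions. The main tests took each library as a replicate. All 48 APOE4 libraries were on 1 collection plate and all 49 APOE3 libraries on the other, so genotype and plate cannot be told apart.

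Cytochrome c oxidase is the last enzyme of the respiratory chain, and Coa5 is one of the small factors needed to assemble it. Fdx2 is the mitochondrial ferredoxin that hands electrons to the machinery building iron-sulfur clusters, the cofactors of several respiratory and metabolic enzymes, while its paralog Fdx1 serves other electron transfers such as steroid synthesis. Tmem65 is a protein of the inner mitochondrial membrane that has been linked to the exchange of sodium for calcium, by which mitochondria of excitable cells release calcium. Neurons depend on all of these functions, since they draw most of their ATP from respiration.

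Coa5 lies on chromosome 1 at 37417085 to 37430103, Fdx2 on chromosome 9 at 21067512 to 21073531 and Tmem65 on chromosome 15 at 58782269 to 58823663 (RefSeq, GRCm38.p6), and all 3 are protein coding. The probes themselves read transcripts, and where on each transcript they bind was not analysed here. The 250 bases before the starts of Coa5 and Fdx2 are shown, the 2 of the 3 members with an entry in the RefSeq promoter table. Whether these sequences bear on the members' levels was not tested. Capitals mark 2 motifs searched on both strands, the core CGGAAG (reverse complement CTTCCG) of ETS factors and the palindromic core TGCGCA of NRF1, a regulator of nuclear genes for mitochondrial proteins. No matches overlapped, and both sequences are on the minus strand, written 5′ to 3′, Coa5 from chr1:37430104-37430353 and Fdx2 from chr9:21073532-21073781.
Coa5: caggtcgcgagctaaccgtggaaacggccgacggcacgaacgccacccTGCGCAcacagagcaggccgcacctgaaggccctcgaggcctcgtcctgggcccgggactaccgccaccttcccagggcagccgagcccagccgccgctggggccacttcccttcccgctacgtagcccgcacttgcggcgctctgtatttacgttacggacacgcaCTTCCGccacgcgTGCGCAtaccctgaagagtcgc
Fdx2: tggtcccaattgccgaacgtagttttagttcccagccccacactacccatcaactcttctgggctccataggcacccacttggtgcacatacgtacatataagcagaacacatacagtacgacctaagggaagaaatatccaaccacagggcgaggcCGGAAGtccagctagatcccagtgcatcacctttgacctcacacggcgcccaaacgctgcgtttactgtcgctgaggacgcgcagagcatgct
The Coa5 window held 1 ETS core, 35 bases before the start, and 2 NRF1 cores. The Fdx2 window held 1 ETS core, 93 bases before the start, and 0 NRF1 cores. Among the 32851 promoter windows of this length in the table, 13.6% held the ETS core and 6.43% the NRF1 core. The E-box CACGTG, a palindrome found in 6.02% of windows, was in neither. The G and C content was 68.4% in the Coa5 window and 53.6% in the Fdx2 window, against a median of 52.4%.

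Most genes in these libraries read at the level of the negative probe. Over all genes the median was 0.912 times that probe in hippocampus and 0.936 times in cortex, with 60 genes in hippocampus and 97 in cortex at more than 2 times it. The negative probe ran from 1.50 to 93.1 in APOE4 libraries and from 1.02 to 2.96 in APOE3 libraries, and it was 5 or more in 13 libraries, 0 of them APOE3. The genes that passed the low-count filter held 717 to 14054 counts per library. The markers listed for the labelled regions gave no check of them: 0 of 6 hippocampal markers reached 2 times the negative probe in hippocampus, the highest being Zbtb20 at 0.985 times, and 0 of 6 cortical markers did so in cortex. Of the lists for other cell types, only the oligodendrocyte list had a member above that level, Olig2, a transcription factor of the lineage.

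Coa5 gave the strongest signal of the 3 members in both regions. Its median value was 10.4 times the negative probe in hippocampus and 29.9 times in cortex, which placed it at rank 18 and rank 12 of all 19962 genes. Fdx2 followed at 6.46 times in hippocampus (rank 27) and 19.0 times in cortex (rank 18). Tmem65 was much nearer to background, at 2.62 times (rank 43) and 3.53 times (rank 54). Ranks compare probes and not transcript amounts, because each probe has its own efficiency and no length correction applies to it. Counts behind these values were small, from 2 to 314 per library for Coa5, from 2 to 160 for Fdx2 and from 1 to 89 for Tmem65, where 1 is the lowest value in 94 of the 97 libraries.

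Coa5 exceeded the negative probe in 97 of 97 libraries and was more than 2 times it in 93. In APOE4 hippocampus its lowest, median and highest signal over the negative probe were 16.1, 21.1 and 22.8 times in DD, 1.00, 4.02 and 19.6 times in DC, and 4.15, 12.1 and 19.2 times in vehicle libraries. In APOE3 hippocampus these were 6.36, 8.86 and 11.6 times in DD, 1.95, 6.20 and 12.8 times in DC, and 4.74, 12.6 and 22.3 times in vehicle libraries. Every APOE4 DD library lay above every APOE3 DD library, while the APOE4 DC libraries spread from the level of the negative probe to that of the vehicle libraries. In APOE4 cortex Coa5 ran at 12.5, 40.0 and 57.8 times the negative probe in DD, 7.20, 41.5 and 60.7 times in DC, and 20.8, 32.7 and 38.9 times in vehicle libraries. In APOE3 cortex it ran at 15.6, 29.9 and 47.1 times in DD, 4.68, 19.8 and 34.6 times in DC, and 12.3, 21.5 and 45.0 times in vehicle libraries. The ranges of all 6 cortex groups overlapped.

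Fdx2 exceeded the negative probe in 95 of 97 libraries and was more than 2 times it in 90. In APOE4 hippocampus its lowest, median and highest signal were 4.08, 8.50 and 12.1 times in DD, 0.721, 2.21 and 8.57 times in DC, and 3.66, 7.43 and 11.5 times in vehicle libraries. In APOE3 hippocampus they were 3.64, 6.76 and 11.7 times in DD, 1.59, 3.68 and 9.85 times in DC, and 4.16, 6.61 and 18.4 times in vehicle libraries. The 2 libraries in which Fdx2 did not pass the negative probe were both APOE4 DC hippocampus. In APOE4 cortex Fdx2 read 5.54, 20.1 and 31.8 times the negative probe in DD, 2.88, 22.2 and 37.2 times in DC, and 12.9, 17.2 and 19.6 times in vehicle libraries. In APOE3 cortex it read 7.38, 21.9 and 42.2 times in DD, 4.73, 12.6 and 20.6 times in DC, and 7.88, 19.8 and 42.8 times in vehicle libraries. Groups again overlapped within cortex.

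Tmem65 exceeded the negative probe in 84 of 97 libraries, was more than 2 times it in 70 and stood at the lowest value of 1 in 11. In APOE4 hippocampus its lowest, median and highest signal were 2.55, 3.91 and 4.58 times in DD, 0.927, 1.21 and 4.28 times in DC, and 1.22, 2.63 and 5.80 times in vehicle libraries. In APOE3 hippocampus they were 0.776, 3.01 and 5.12 times in DD, 0.914, 2.33 and 5.55 times in DC, and 0.832, 2.21 and 6.67 times in vehicle libraries. All 11 libraries at the value of 1 were APOE3. In APOE4 cortex Tmem65 read 1.71, 4.01 and 8.96 times the negative probe in DD, 1.90, 4.05 and 8.85 times in DC, and 2.85, 3.89 and 5.64 times in vehicle libraries. In APOE3 cortex it read 0.821, 3.02 and 5.66 times in DD, 0.947, 2.90 and 6.08 times in DC, and 0.876, 2.31 and 8.49 times in vehicle libraries. No group of Tmem65 lay apart from the others.

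**Figure D1:**
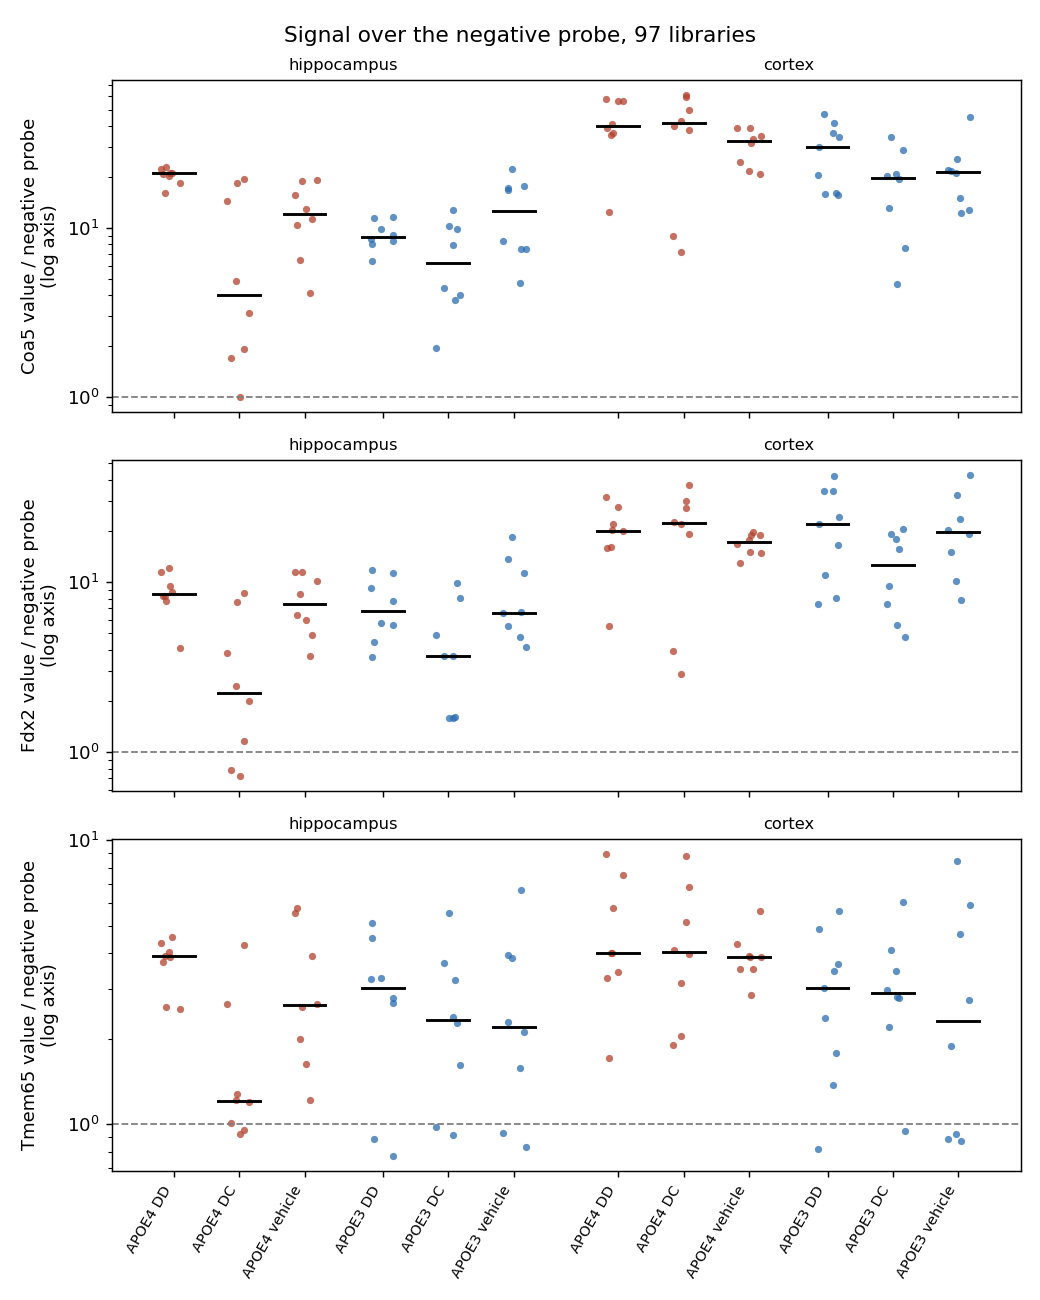
Value of Coa5, Fdx2 and Tmem65 over the negative probe in each of the 97 libraries (points; red APOE4, blue APOE3; log axes), with the group median as a bar and a dashed line where a gene equals the negative probe. Coa5 and Fdx2 sit higher in cortex, and the APOE4 DC hippocampus libraries spread down to the dashed line for all 3 genes.

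All 3 members had their lowest group median in APOE4 DC hippocampus. There Coa5 was more than 2 times the negative probe in 5 of 8 libraries, Fdx2 in 4 of 8 and Tmem65 in 2 of 8. The negative probe itself was highest in that group, at 1.63, 10.9 and 93.1 (lowest, median and highest) in DC libraries against 1.72, 2.03 and 4.10 in vehicle libraries, a 5.15-fold difference in geometric means (two-sided exact permutation test, Benjamini-Hochberg adjusted p = 0.0218 over 24 comparisons). Raw counts of Coa5, which include background, were 22, 43.5 and 180 in DC libraries against 13, 23.5 and 51 in vehicle libraries. The part of the negative probe in the members' values in that group was not tested apart from the alternatives named beside each result.

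Genes of the surrounding mitochondrial pathways were mostly not measured above the negative probe. Of the 25 assembly factors of cytochrome c oxidase in the table, Coa5 was the 1 gene over 2 times the negative probe; the next were Surf1, at 1.25 times, and Sco1, at 1.05 times, in hippocampus, and Pet100, at 1.39 times, and Cox17, at 1.07 times, in cortex. None of the 11 subunits of the enzyme reached that level, Ndufa4 (1.10 times) and Cox8a (1.07 times) being highest in hippocampus and Cox8a and Cox6a1 (1.78 times each) in cortex. Of the 21 genes for iron-sulfur cluster assembly and ferredoxins, Fdx2 was the 1 gene above it, followed by Isca1, a carrier of nascent clusters, at 1.10 times in hippocampus and Nfs1, the desulfurase that provides the sulfur, at 1.11 times in cortex, with Ndufab1 (1.08 times) and Isca2 (1.09 times) next. Of the 15 genes for mitochondrial calcium and sodium handling, Tmem65 was again the 1 gene above it; Mcu, the pore of the calcium uniporter, read 0.976 times in hippocampus and Ghitm, a protein of the inner membrane, 1.09 times in cortex, with the uniporter subunit Smdt1 at 0.956 times and the regulator Micu2 at 0.947 times next. Fdx1, the paralog of Fdx2, read 0.843 and 1.04 times and did not pass the filter in either region. Among 12 genes of general mitochondrial content, Mtch2, an outer membrane protein, was the exception at 644 and 358 times, followed by Tomm40 (0.993 times) in hippocampus and Atp5a1 (1.62 times) in cortex. Apart from the members and Mtch2, none of these listed genes passed the low-count filter, so their differences between groups were not tested in the main comparisons. In fits without that filter, Mtch2 was the 1 gene of these other listed genes to pass, in 4 comparisons.

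**Figure D2:**
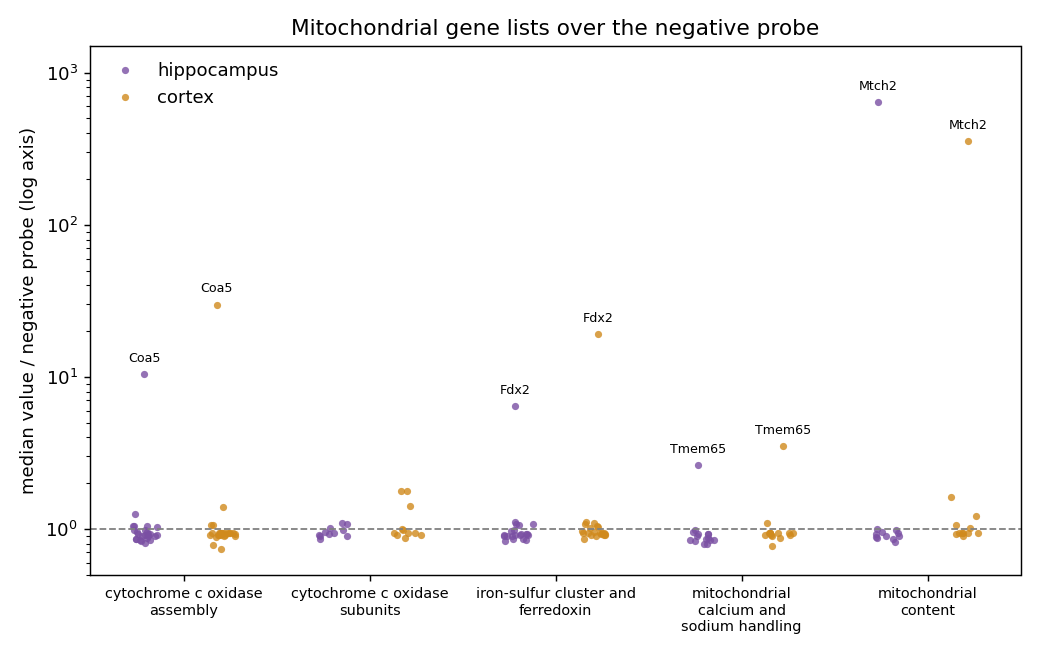
Median value over the negative probe (log axis) of each gene of 5 mitochondrial lists, in hippocampus (purple) and cortex (orange), with a dashed line at the negative probe. Genes over 2 times the negative probe are named: Coa5, Fdx2, Tmem65 and Mtch2.

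For comparisons between groups, counts were scaled with TMM and expressed as log2 CPM, which sets each count against the summed counts of the tested genes. That sum includes Mtch2, whose group means ran from 17.07 log2 CPM in APOE3 DC cortex to 20.01 in APOE3 vehicle hippocampus. Mtch2 itself was called lower within regions, as after DD in APOE4 cortex (log2 -0.71, edgeR adjusted p = 0.0366). It was also lower in APOE4 than in APOE3 vehicle libraries of cortex (-0.61, edgeR adjusted p = 0.0389) and hippocampus (-0.85, edgeR adjusted p = 0.0118). Its part in the members' values was not tested beyond leaving it out before scaling. Genes with too few counts were left out. Coa5 and Fdx2 passed this filter in both regions. Tmem65 passed it in cortex, with 10 of 49 libraries over the cutoff, 3 of them APOE4 DD, and not in hippocampus, with 3 of 48. It passed over all 97 libraries together, with 11 over the cutoff. This left 73 tests of the members in 28 comparisons, of which 14 passed an adjusted p of 0.05, 6 higher and 8 lower. That is 19.2% of the members' tests, against 22% of the 1393 tests of all genes in the same comparisons. All tests were edgeR quasi-likelihood F tests with Benjamini-Hochberg adjustment over all genes tested, 38 in hippocampus, 57 in cortex and 58 over both regions, and errors are standard errors.

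On 1 scaling over all libraries, the group means of Coa5 spanned 1.16 on the log2 scale. They ran from 14.23 ± 0.14 log2 CPM in APOE4 DD cortex and 14.09 ± 0.13 in APOE4 DC cortex down to 13.13 ± 0.32 in APOE3 DD hippocampus and 13.07 ± 0.83 in APOE3 DC hippocampus (SD, n = 8 each). Of 11 neighbouring pairs in this order, 10 differed by less than their larger SD; APOE4 DC cortex and APOE4 DD hippocampus, at 13.82 ± 0.23, differed by 0.27. Fdx2 spanned 1.23, with all 6 cortex groups above all 6 hippocampus groups, from 13.42 ± 0.44 in APOE3 vehicle cortex to 12.18 ± 0.35 in APOE4 DC hippocampus, and 11 of 11 neighbouring pairs lay within their SD. Tmem65 spanned 1.02 in nearly the opposite order, from 11.79 ± 0.70 in APOE3 DC hippocampus to 10.77 ± 0.53 in APOE3 DD cortex (n = 9), also with 11 of 11 pairs within their SD. These orders depend on the scaling: as log2 signal over the negative probe the spans were 3.01 for Coa5, 3.03 for Fdx2 and 1.58 for Tmem65. For Tmem65 the highest group, APOE3 DC hippocampus, had the lowest median of summed counts of tested genes, at 958. In 2 of its 8 libraries Tmem65 stood at the value of 1. The second group, APOE4 DC hippocampus at 11.62 ± 0.61, had the lowest median of Tmem65 over the negative probe.

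**Figure D3:**
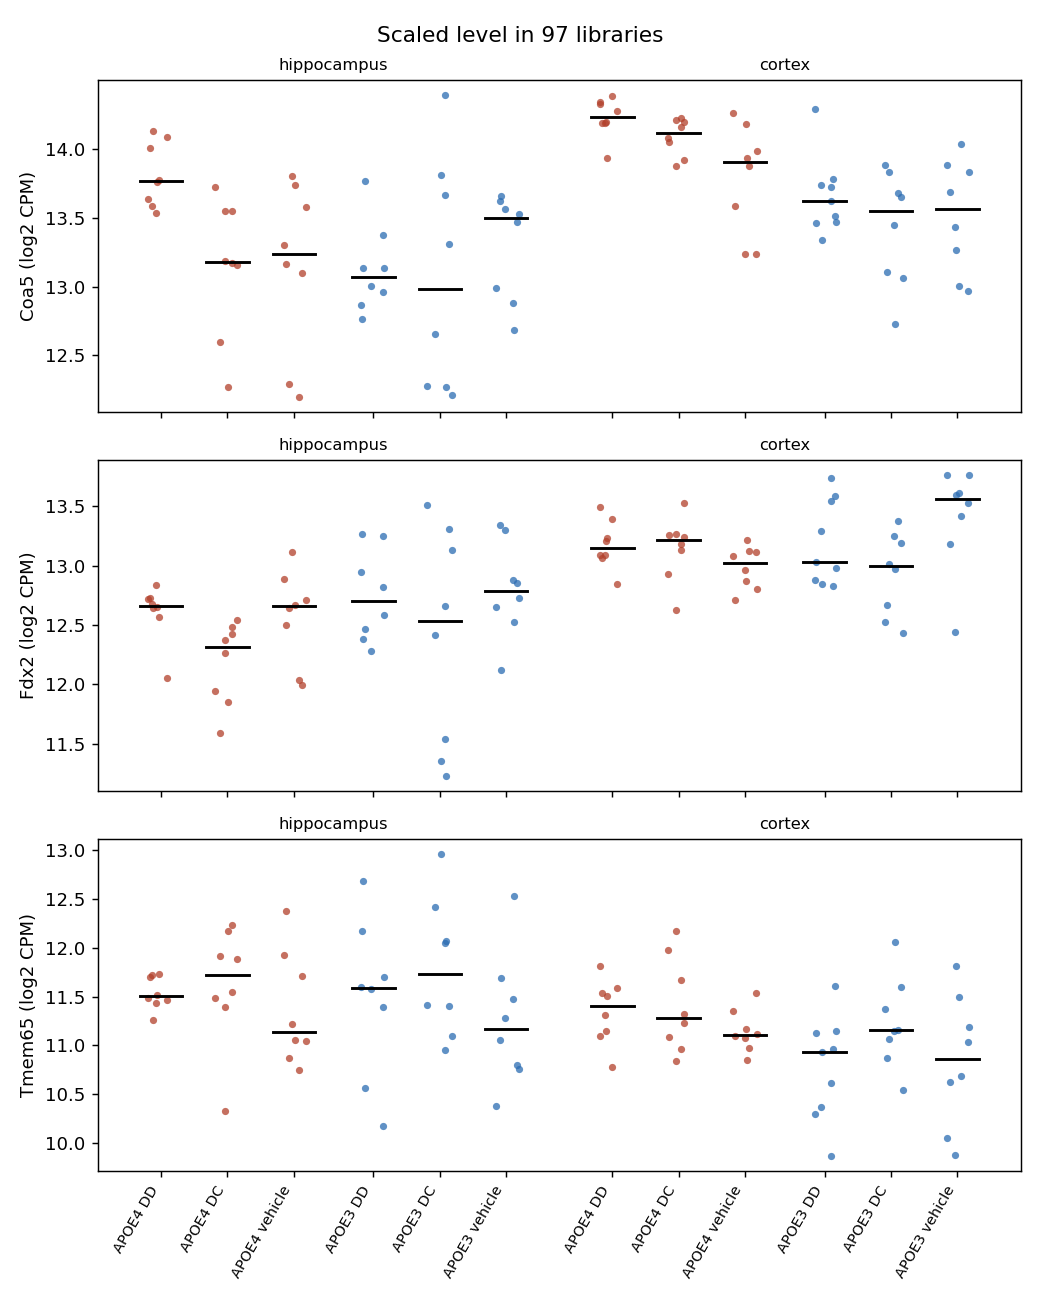
Level of Coa5, Fdx2 and Tmem65 in log2 CPM, scaled over all 97 libraries (points; red APOE4, blue APOE3), with group medians as bars. Coa5 is highest in the APOE4 DD and DC cortex libraries, Fdx2 is higher in the cortex groups, and the Tmem65 groups overlap throughout.

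Coa5 and Fdx2 were the members most alike over the 12 group means, with a Spearman correlation of 0.65, against -0.38 for Coa5 and Tmem65 and -0.82 for Fdx2 and Tmem65. Across the 97 libraries the same correlations were 0.27, -0.22 and -0.30. The values share libraries, depth and scaling and are given as descriptions only. Among the 57 other tested genes, the group means most like those of Coa5 were Marcks (0.87), Olig2 (0.85) and Tysnd1 (0.83). For Fdx2 they were Cd99 (0.97), Trir (0.97) and Gm10265 (0.94), and for Tmem65 Eri3 (0.82), Vmn1r189 (0.82) and Rps26 (0.81). Over the 97 single libraries the correlations of Coa5 with Marcks and Olig2 were lower, at 0.30 and 0.16, and with Tysnd1 it was 0.67.

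The ratio of Coa5 to Fdx2 counts within a library does not depend on how libraries are scaled, but both counts include background. Its median on the log2 scale was 1.01 in the 48 APOE4 libraries and 0.46 in the 49 APOE3 libraries. In cortex the lowest, median and highest log2 ratios were 0.73, 1.08 and 1.49 in APOE4 DD libraries against -0.08, 0.46 and 1.47 in APOE3 DD libraries. They were 0.41, 1.00 and 1.32 in APOE4 DC cortex against -0.26, 0.47 and 1.43 in APOE3 DC cortex, and 0.13, 0.86 and 1.37 in APOE4 vehicle cortex against -0.64, 0.10 and 1.06 in APOE3 vehicle cortex. Every APOE4 cortex library had more Coa5 than Fdx2 counts, while each APOE3 cortex group held libraries with fewer. The hippocampal medians were 1.23 in APOE4 DD, 1.07 in APOE4 DC and 0.71 in APOE4 vehicle libraries, and 0.58 in APOE3 DD, 0.74 in APOE3 DC and 0.33 in APOE3 vehicle libraries. In APOE4 DC hippocampus Fdx2 did not exceed the negative probe in 2 of 8 libraries, so the median there includes ratios at background. The ranges of both genotypes overlapped in every treatment and region, and this ratio was not tested.

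**Figure D4:**
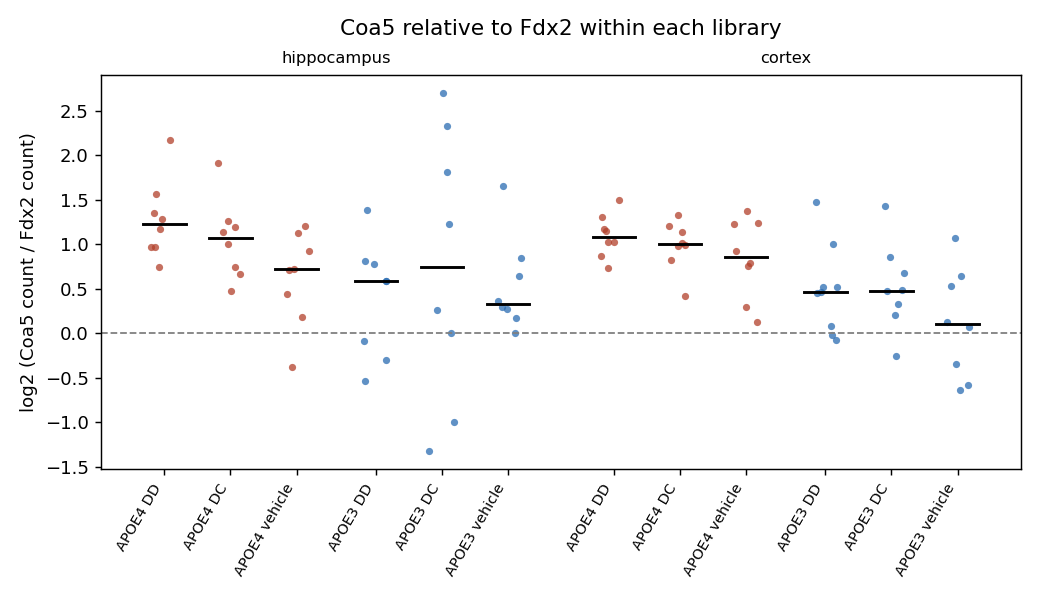
Log2 ratio of Coa5 to Fdx2 counts in each library (points; red APOE4, blue APOE3), with group medians as bars and a dashed line at equal counts. The APOE4 medians lie above the APOE3 medians of the same treatment in both regions, with overlapping ranges.

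The treatment comparisons asked whether the members differed between DD or DC mice and vehicle mice of the same genotype. Coa5 rose in APOE4 cortex after DD, the 1 call among 20 tests of members against vehicle. Its lowest, median and highest levels there were 13.94, 14.23 and 14.39 log2 CPM in DD libraries against 13.24, 13.91 and 14.26 in vehicle libraries. All 8 DD libraries lay above the vehicle mean, and the groups overlapped. The difference was 1.35-fold (log2 0.43, SE 0.14, edgeR adjusted p = 0.0366), in a comparison in which 12.3% of the 57 tested genes passed. After DC, 8 of 8 APOE4 cortex libraries also lay above the vehicle mean, at 13.88, 14.12 and 14.23 log2 CPM, but the difference did not pass (log2 0.28, SE 0.14, edgeR adjusted p = 0.204, with 1.75% of genes passing).

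The DD call for Coa5 was narrow. It ended when any of 11 of the 16 libraries was left out, namely APOE4 DD cortex 1, 3, 4, 5, 6 or 7 or APOE4 vehicle cortex 1, 3, 4, 7 or 8, with log2 values of 0.36 to 0.47 and edgeR adjusted p of 0.0502 to 0.145. It also ended with upper-quartile scaling (log2 0.40, adjusted p = 0.0554) and with adjacent wells summed (0.34, adjusted p = 0.409). All p-values in these comparisons take regions as replicates, which makes them too small wherever 1 animal gave several regions.

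In APOE4 hippocampus Coa5 had a larger difference with a larger error after DD, at 13.54, 13.77 and 14.13 log2 CPM in DD libraries against 12.20, 13.23 and 13.81 in vehicle libraries. All 8 DD libraries lay above the vehicle mean, and the difference of 1.43-fold did not pass (log2 0.51, SE 0.19, edgeR adjusted p = 0.0659), where 5.26% of the 38 genes did. It passed when Mtch2 was left out before scaling (log2 0.56, adjusted p = 0.0272) and when both regions were fitted together (0.62, adjusted p = 0.0300). After DC the value in APOE4 hippocampus was log2 0.19 (SE 0.19, edgeR adjusted p = 0.438, with 21.1% of genes passing). In APOE3 mice Coa5 differed from vehicle by log2 0.16 (SE 0.16) after DD and 0.12 (SE 0.17) after DC in cortex, and by -0.15 (SE 0.23) and 0.05 (SE 0.25) in hippocampus. None of these passed in edgeR, in comparisons where 3.51%, 12.3%, 2.63% and 21.1% of genes passed.

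Fdx2 passed in 0 of 8 treatment tests by edgeR and in 0 by DESeq2, with 1 at an unadjusted p under 0.05. That was DC in APOE3 cortex, where its lowest, median and highest levels were 12.43, 13.00 and 13.37 log2 CPM in DC libraries against 12.44, 13.56 and 13.77 in vehicle libraries (log2 -0.37, SE 0.18, edgeR adjusted p = 0.153). Its other values ran from -0.18 (SE 0.20) for DC in APOE4 hippocampus to 0.20 (SE 0.15) for DD in APOE4 cortex. Scaled to the negative probe, Fdx2 was lower after DC in APOE4 hippocampus (log2 -1.41, edgeR adjusted p = 0.00807), the group with the highest negative probe. Tmem65 could be tested in cortex only, and passed in 0 of 4 tests by edgeR and by DESeq2, with 0 at an unadjusted p under 0.05. Its differences there were 0.23 (SE 0.24) for DD and 0.30 (SE 0.23) for DC in APOE4 mice, and -0.35 (SE 0.34) for DD and 0.33 (SE 0.34) for DC in APOE3 mice.

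DD and DC share doxorubicin, and no member was called between them in 10 tests by edgeR or by DESeq2, with 1 at an unadjusted p under 0.05. That was Tmem65 in APOE3 cortex, at 1, 4 and 14 counts in DD libraries against 1, 4.5 and 18 in DC libraries (log2 -0.67, SE 0.31, edgeR adjusted p = 0.182). For Coa5 the DD minus DC values were 0.15 (SE 0.13) in APOE4 cortex and 0.03 (SE 0.16) in APOE3 cortex, and 0.32 (SE 0.18) and -0.20 (SE 0.25) in hippocampus. For Fdx2 they were 0.02 (SE 0.15) and 0.19 (SE 0.17) in cortex and 0.10 (SE 0.19) and 0.19 (SE 0.26) in hippocampus. Over all genes 0% passed in both cortex comparisons and in APOE3 hippocampus, where 12 genes in APOE3 cortex, 0 in APOE4 cortex and 2 in APOE3 hippocampus had an unadjusted p under 0.05, and 10.5% passed in APOE4 hippocampus. In APOE4 hippocampus, where the negative probe was 4.15-fold lower in DD than in DC libraries (exact permutation, adjusted p = 0.0375), both genes were called when both regions were fitted together, Coa5 at 0.65 and Fdx2 at 0.45 (edgeR adjusted p = 0.00193 and 0.0317).

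Comparing genotypes within a treatment asked how regions of APOE4 mice differed from those of APOE3 mice. Coa5 was higher in APOE4 mice in 3 of 6 comparisons, Tmem65 in 1 of 3, and Fdx2 in 0 of 6. In DD cortex Coa5 stood at 13.94, 14.23 and 14.39 log2 CPM in APOE4 libraries against 13.34, 13.62 and 14.29 in APOE3 libraries. All 8 APOE4 libraries lay above the APOE3 mean, and 1 APOE3 library, at the top of its group, reached into their range. The difference was 1.58-fold (log2 0.66, SE 0.14, edgeR adjusted p = 0.000129), where 21.1% of 57 genes passed. In DC cortex Coa5 stood at 13.88, 14.12 and 14.23 log2 CPM in APOE4 libraries against 12.73, 13.55 and 13.88 in APOE3 libraries, 1.46-fold higher in APOE4 (log2 0.54, SE 0.15, edgeR adjusted p = 0.00466), again with 8 of 8 libraries above the APOE3 mean and with 24.6% of genes passing.

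In vehicle cortex the difference in Coa5 was smaller and did not pass (log2 0.38, SE 0.16, edgeR adjusted p = 0.0768, 6 of 8 libraries above the APOE3 mean), where 21.1% of genes did. Its levels there were 13.24, 13.91 and 14.26 log2 CPM in APOE4 libraries against 12.97, 13.56 and 14.04 in APOE3 libraries. It passed with upper-quartile scaling, with values of 1 set to 0 or with the negative probe subtracted (log2 0.47, 0.44 and 0.49, edgeR adjusted p = 0.0323, 0.0446 and 0.0226), and without APOE4 vehicle cortex 4 or 7 or APOE3 vehicle cortex 1 or 2 (0.44 to 0.45, adjusted p of 0.0307 to 0.0465). In hippocampus Coa5 was higher in APOE4 mice after DD, at 13.54, 13.77 and 14.13 log2 CPM against 12.76, 13.07 and 13.77 in APOE3 mice, a 1.67-fold difference (log2 0.74, SE 0.21, edgeR adjusted p = 0.00995) in 8 of 8 libraries. That comparison called 7.89% of 38 genes. In vehicle and DC hippocampus Coa5 differed by log2 0.07 (SE 0.21) and 0.22 (SE 0.23), and neither passed in edgeR, where 39.5% and 21.1% of genes did.

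All 3 of these Coa5 calls held when any 1 library was left out, and all 3 ended when libraries were scaled to the negative probe or when no low-count filter was used. The differences themselves stayed positive with larger errors: scaled to the negative probe they were log2 0.53 (SE 0.38, edgeR adjusted p = 0.547) in DD cortex, 1.00 (SE 0.40, adjusted p = 0.0884) in DC cortex and 1.15 (SE 0.43, adjusted p = 0.0897) in DD hippocampus, and with no filter 0.67, 1.10 and 1.14. The negative probe was higher in APOE4 libraries in all 6 genotype comparisons, by 1.77- to 8.92-fold (exact permutation, adjusted p of 0.00186 to 0.0375). Where Coa5 was called, the summed counts of tested genes were higher by 3.18-fold in DC cortex, 2.33-fold in DD hippocampus and 1.71-fold in DD cortex (exact permutation, adjusted p = 0.00821, 0.00559 and 0.281). Where it was not called, they were higher by 4.74-fold in DC hippocampus, 1.99-fold in vehicle cortex and 1.25-fold in vehicle hippocampus (exact permutation, adjusted p = 0.00373, 0.0311 and 0.469). The part of either in the Coa5 difference was not tested beyond these alternatives.

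Fdx2 passed in none of the 6 genotype tests by edgeR, with 1 at an unadjusted p under 0.05, and in 1 by DESeq2. In vehicle cortex its value was -0.40 on the log2 scale (SE 0.17, edgeR adjusted p = 0.0768), with 12.71, 13.03 and 13.21 log2 CPM in APOE4 libraries against 12.44, 13.56 and 13.77 in APOE3 libraries. The APOE4 levels thus lay within the range of the APOE3 libraries, and 0 of 8 exceeded the APOE3 mean. DESeq2 called this difference (log2 -0.50, adjusted p = 0.0350), as edgeR did when APOE3 vehicle cortex 6, the lowest library of its group, was left out (-0.50, adjusted p = 0.0255) or APOE4 vehicle cortex 1 or 7 (-0.53 and -0.44, adjusted p = 0.0280 and 0.0487). In DD and DC cortex Fdx2 differed by -0.02 (SE 0.15) and 0.14 (SE 0.17), and in vehicle, DD and DC hippocampus by -0.04 (SE 0.22), -0.20 (SE 0.21) and -0.11 (SE 0.25).

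Tmem65 was higher in APOE4 than in APOE3 cortex after DD, at 6, 15.5 and 23 counts in APOE4 libraries against 1, 4 and 14 counts in APOE3 libraries, or 10.78, 11.41 and 11.81 log2 CPM against 9.87, 10.94 and 11.60. All 8 APOE4 libraries lay above the APOE3 mean, with overlapping ranges. Of the 10 cortex libraries over the low-count cutoff for Tmem65, 3 were APOE4 DD and 1 was APOE3 DD. The group that read higher thus also helped the gene pass the filter, so the call is not independent of it. The difference of 1.68-fold (log2 0.75, SE 0.26, edgeR adjusted p = 0.0309) kept its call under 1 of 11 alternatives and lost it in DESeq2 (0.69, adjusted p = 0.106). It was also lost without APOE4 DD cortex 1, 2 or 3 or without APOE3 DD cortex 6, 7 or 8 (log2 0.62 to 0.73, edgeR adjusted p of 0.0519 to 0.108). In vehicle and DC cortex Tmem65 differed by 0.17 (SE 0.31) and 0.14 (SE 0.27).

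The interaction of genotype and treatment, which tests whether a treatment difference itself differed between APOE4 and APOE3 mice, was called for no member in 10 tests by edgeR or by DESeq2. At an unadjusted p under 0.05 there were 2. Coa5 after DD in hippocampus differed from vehicle by log2 0.51 in APOE4 and -0.15 in APOE3 mice, an interaction of 0.67 (SE 0.30, edgeR adjusted p = 0.196). Fdx2 after DC in cortex differed from vehicle by 0.18 in APOE4 and -0.37 in APOE3 mice, an interaction of 0.54 (SE 0.24, edgeR adjusted p = 0.296). Over all genes 0% passed for DD in both regions (7 genes in hippocampus and 1 in cortex at an unadjusted p under 0.05), and for DC 5.26% in hippocampus and 3.51% in cortex. The higher Coa5 in treated APOE4 cortex is therefore not shown to differ from the smaller difference in vehicle cortex.

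**Figure D5:**
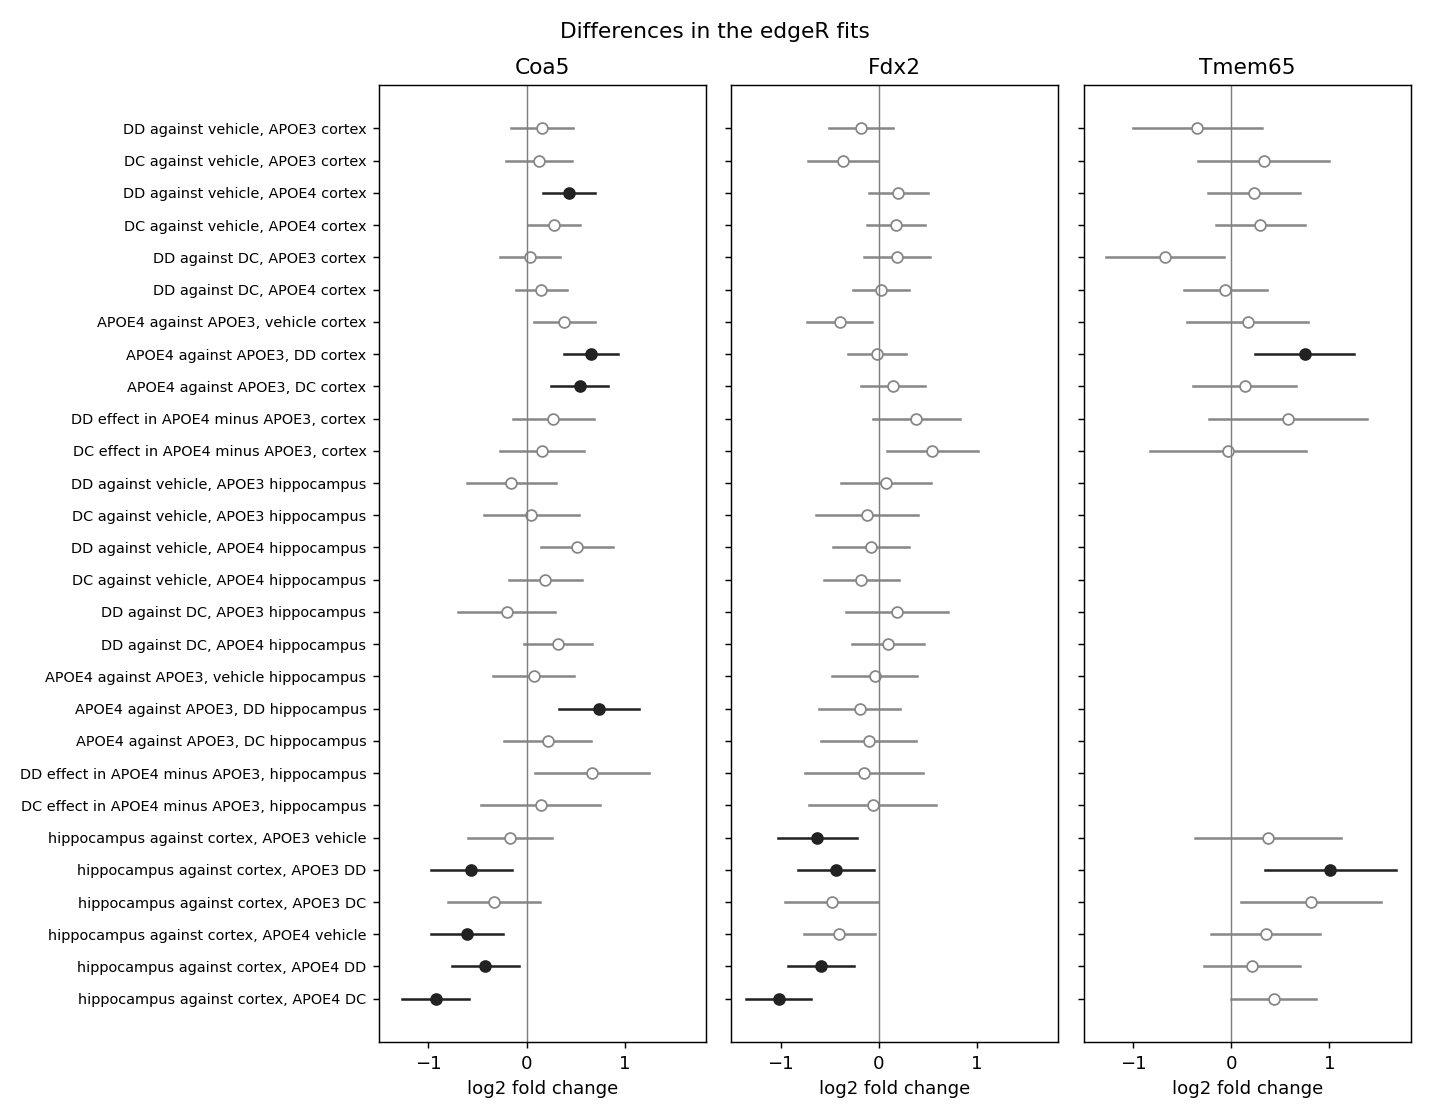
Log2 fold change of Coa5, Fdx2 and Tmem65 in each comparison (points, with 95% intervals from the edgeR fits as lines); filled points passed an adjusted p of 0.05, and rows named as an effect in APOE4 minus APOE3 give the difference of 2 log2 fold changes. Coa5 has filled points to the right for APOE4 against APOE3 after DD in both regions and after DC in cortex, Coa5 and Fdx2 have them to the left for hippocampus against cortex, and Tmem65 was not tested within hippocampus.

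Between hippocampus and cortex of the same genotype and treatment, 9 of 18 tests of the members passed. The values of Coa5 and Fdx2 were negative in all 6 combinations of genotype and treatment, and each was called lower in hippocampus in 4. Those of Tmem65 were positive in all 6 with TMM scaling and the low-count filter, and it was called higher in 1, but they were negative in all 6 with no filter (log2 -0.03 to -1.47) and in all 6 when scaled to the negative probe (-0.11 to -1.52). Between 51.7% and 62.1% of all tested genes passed in these comparisons, so the members' share is near the background, and the median log2 difference of all tested genes ran from -0.27 to 0.31. Whether a region difference itself differed between treatments or genotypes was not tested. In bulk regions, fewer cells of a type and less RNA per cell cannot be told apart.

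Coa5 had its largest region difference in APOE4 DC mice. Its lowest, median and highest levels there were 12.27, 13.18 and 13.72 log2 CPM in hippocampus against 13.88, 14.12 and 14.23 in cortex, with no overlap. The difference was 1.90-fold (log2 -0.93, SE 0.17, edgeR adjusted p = 1.68e-06), where 62.1% of 58 genes passed. In APOE4 vehicle mice Coa5 stood at 12.20, 13.23 and 13.81 log2 CPM in hippocampus against 13.24, 13.91 and 14.26 in cortex, with overlap (log2 -0.61, SE 0.19, edgeR adjusted p = 0.00342; 56.9% of genes passed). In APOE4 DD mice, at 13.54, 13.77 and 14.13 against 13.94, 14.23 and 14.39 log2 CPM, 8 of 8 hippocampus libraries lay below the cortex mean (log2 -0.42, SE 0.17, edgeR adjusted p = 0.0280; 62.1% of genes passed). In APOE3 DD mice 7 of 8 did, at 12.76, 13.07 and 13.77 against 13.34, 13.62 and 14.29 log2 CPM (log2 -0.56, SE 0.21, edgeR adjusted p = 0.0177; 58.6% of genes passed).

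In APOE3 vehicle and DC mice Coa5 did not pass, at log2 -0.17 (SE 0.22) and -0.33 (SE 0.24), where 51.7% of genes did in each. The APOE3 DC value passed under 5 of 11 alternatives, at log2 -0.56 with upper-quartile scaling, -0.57 with values of 1 set to 0, -0.86 with the negative probe subtracted, -0.87 with adjacent wells summed and -1.46 scaled to the negative probe (edgeR adjusted p of 0.00208 to 0.0296), and without APOE3 DC hippocampus 5 (-0.55, adjusted p = 0.0490). The APOE3 vehicle value passed with adjacent wells summed (-0.58, adjusted p = 0.0357). The Coa5 call in APOE4 DC mice ended when the libraries with a negative probe of 5 or more, 6 of the 8 DC hippocampus libraries among them, were left out (log2 -0.26, edgeR adjusted p = 0.564) or the negative probe was subtracted (-0.46, adjusted p = 0.0612). The calls in APOE4 vehicle and DD mice ended when Mtch2 was left out before scaling (log2 -0.35 and -0.32, edgeR adjusted p = 0.119 and 0.126); that in DD mice also ended without APOE4 DD hippocampus 4 or 5 (-0.38 and -0.39, adjusted p = 0.0576 and 0.0537) and with the run of adjacent wells as a random block (-0.42, limma adjusted p = 0.0615).

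Fdx2 also had its largest region difference in APOE4 DC mice, at 11.59, 12.32 and 12.54 log2 CPM in hippocampus against 12.62, 13.21 and 13.53 in cortex. The groups did not overlap, and the difference was 2.03-fold (log2 -1.02, SE 0.17, edgeR adjusted p = 1.05e-07). In APOE4 DD mice the groups nearly touched without overlap, at 12.05, 12.66 and 12.84 against 12.84, 13.15 and 13.49 log2 CPM (log2 -0.59, SE 0.17, edgeR adjusted p = 0.00202). In APOE3 vehicle mice 8 of 8 hippocampus libraries lay below the cortex mean, at 12.12, 12.79 and 13.34 against 12.44, 13.56 and 13.77 log2 CPM (log2 -0.63, SE 0.21, edgeR adjusted p = 0.00664).

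The fourth Fdx2 call, in APOE3 DD mice, was the weakest. Levels were 12.28, 12.70 and 13.27 log2 CPM in hippocampus against 12.83, 13.03 and 13.74 in cortex, with 6 of 8 hippocampus libraries below the cortex mean (log2 -0.44, SE 0.20, edgeR adjusted p = 0.0475). It ended without any of 10 of the 17 libraries, which were APOE3 DD hippocampus 1, 2, 4, 5, 7 or 8 and APOE3 DD cortex 6, 7, 8 or 9 (log2 -0.46 to -0.34, edgeR adjusted p of 0.0507 to 0.136), and with the run of adjacent wells as a random block (-0.39, limma adjusted p = 0.150). In APOE4 vehicle and APOE3 DC mice Fdx2 did not pass, at -0.41 (SE 0.18, edgeR adjusted p = 0.0506) and -0.48 (SE 0.24, edgeR adjusted p = 0.0819). The APOE4 vehicle value passed under 4 alternatives, at -0.47 to -1.11 (edgeR adjusted p of 0.00582 to 0.0202), and without APOE4 vehicle hippocampus 1 or 3 or APOE4 vehicle cortex 2, 5 or 8 (-0.42 to -0.51, adjusted p of 0.0160 to 0.0474). The APOE3 DC value passed under 6, at -0.61 to -1.57 (adjusted p of 0.00125 to 0.0336), and without APOE3 DC hippocampus 1, 6 or 7 (-0.59 to -0.70, adjusted p of 0.0196 to 0.0426). Without the libraries with a negative probe of 5 or more, the APOE4 DC value of Fdx2 was -0.66 and did not pass (edgeR adjusted p = 0.103).

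Tmem65 was higher in hippocampus than in cortex in APOE3 DD mice, by 2.01-fold (log2 1.01, SE 0.34, edgeR adjusted p = 0.00804). Its counts were 1, 5 and 7 in hippocampus against 1, 4 and 14 in cortex, or 10.17, 11.59 and 12.68 log2 CPM against 9.87, 10.94 and 11.60, and 6 of 8 hippocampus libraries lay above the cortex mean with overlapping ranges. The raw counts were thus similar in both regions. In the fit of both regions, 0 of 8 APOE3 DD hippocampus and 0 of 9 APOE3 DD cortex libraries were over the low-count cutoff for Tmem65. The gene entered that fit through other groups. The direction rests on the scaling, since the value was -0.11 when libraries were scaled to the negative probe and -0.03 with no low-count filter (edgeR adjusted p = 0.799 and 0.997). In the other groups the values ran from 0.21 (SE 0.25) in APOE4 DD to 0.81 (SE 0.36, edgeR adjusted p = 0.0539) in APOE3 DC mice, where it passed under 2 alternatives (0.86 each, adjusted p = 0.0393 and 0.0345) and without APOE3 DC hippocampus 1, 5, 6 or 7 or APOE3 DC cortex 5 or 8 (0.84 to 0.95, adjusted p of 0.0359 to 0.0463). In APOE4 vehicle mice it passed when Mtch2 was left out before scaling (0.64, edgeR adjusted p = 0.0474). In APOE4 DC mice Tmem65 differed by 0.43 (SE 0.22) with TMM scaling and by -1.52 when scaled to the negative probe (edgeR adjusted p = 0.0801 and 2.37e-05). Upper-quartile scaling gave 0.79 and a call (edgeR adjusted p = 0.00358), as did leaving out APOE4 DC hippocampus 3 or APOE4 DC cortex 5 or 6 (0.54 to 0.55, adjusted p of 0.0230 to 0.0272), so its direction there is not settled by these data. Mtch2, the strongest signal of all genes, was called higher in hippocampus in all 6 combinations, by log2 1.04 to 1.75. With no low-count filter it was called in 0 of these 6.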

How the data were processed

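The deposited table holds expected counts per probe target, which the authors deposited unscaled for sequencing depth, per the labels; mm10 is the genome build per the submitters' processing notes, and the counting software is not given in the sources used here. Values were rounded to whole numbers (4 of 19963 rows, the negative probe among them, held others), and the negative probe row was kept out of library sizes and tests. Libraries were grouped as the labels give genotype, treatment and region.

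Genes passing filterByExpr (minimum count 10) were tested in edgeR 4.0.16 (R 4.3.3) after TMM scaling, by quasi-likelihood F tests in 1 fit per region of its 6 groups, and p-values were adjusted over all tested genes by Benjamini-Hochberg (threshold 0.05); hippocampus was set against cortex in 1 fit of all 97 libraries. Log2 CPM used a prior count of 2, and levels were scaled over all libraries together. Standard errors were derived from the F statistic and 95% intervals from them. For the negative probe, exact permutation tests (two-sided) compared libraries. The counts and their number limit the precision: total counts reach down to 21568 per library, and the genes passing the filter held 717 to 14054. Totals include every gene at the lowest value, which was 1 in 94 of the 97 libraries, over 19962 gene rows. Where a value of 1 stands for no tag, the totals overstate the depth. PCR duplicates were not separated here, so spreads and counts describe sequenced tags.

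The 3 members, the 5 mitochondrial lists, the 10 marker lists and the tests were chosen with earlier results of these data known. The rule for named genes took the members, listed genes that passed the filter, the 2 genes of each mitochondrial list highest over the negative probe in a region, the 3 tested genes most alike by Spearman correlation of the 12 group means, and Fdx1; the next genes of those lists and Zbtb20 were added after their values were seen. Values of some listed marker genes are not reported here. The alternatives were upper-quartile scaling, DESeq2 1.42.0, no low-count filter, scaling to the negative probe, Mtch2 left out before scaling, values of 1 set to 0, counts summed over runs of adjacent wells (49 runs), the run as a random block (voom and duplicateCorrelation, limma 3.58.1), leaving out the 13 libraries with a negative probe of 5 or more, another set of libraries in the fit, leaving out each library, and, chosen after seeing the data, subtracting the negative probe.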

Additional observations from a re-analysis of the deposited data

Results flagged for a closer look

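In 36 groups of member levels, 5 libraries stood apart from the rest of their group by Dixon's criterion, which chance meets in about 1 group in 20. The highest Coa5 level of APOE3 DD cortex was 14.29 log2 CPM in replicate 1, with the next library at 13.79; it rests on 25 counts. The lowest Coa5 level of APOE4 DD cortex was 13.94 log2 CPM in replicate 1, from 113 counts, with the next at 14.19. Fdx2 was lowest in APOE3 vehicle cortex at 12.44 log2 CPM in replicate 6, from 11 counts, with the next library at 13.19. In APOE4 DD hippocampus its lowest level was 12.05 log2 CPM in replicate 2, from 8 counts, with the next at 12.57. Tmem65 was lowest in APOE4 DC hippocampus at 10.33 log2 CPM in replicate 3, from 3 counts, with the next at 11.40. In 24 pairs of contrasts checked, 0 had every library of one group move one way and every library of the other move the opposite way.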

How the results depend on the processing

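None of the 14 calls was kept under all 11 alternatives, while 10 were kept whichever single library was left out. Against vehicle in cortex, the count of member calls was 1 and became 0 with upper-quartile scaling, with no low-count filter, scaled to the negative probe, with counts summed over runs of wells, with the run as a random block and with all 97 libraries in the fit, and it ran from 0 to 1 when single libraries were left out. In hippocampus it was 0 and became 1 when scaled to the negative probe, without Mtch2 or with all libraries in the fit (0 to 1 with single libraries left out). Between genotypes in cortex it was 3 and became 0 with no low-count filter or scaled to the negative probe (2 to 5 with single libraries left out), and in hippocampus it was 1 and became 0 under those settings and with the negative probe subtracted. Between DD and DC in hippocampus it was 0 and became 2 when scaled to the negative probe or fitted with all libraries. Between regions it was 9 and became 3 with no low-count filter, counting calls in either direction: Coa5, Fdx2 and Tmem65 in APOE4 DC mice. Tmem65 was lower in hippocampus there (log2 -1.47, edgeR adjusted p = 0.0201), the reverse of its main value, which was not called. The lost Coa5 and Fdx2 values were larger than before, at -1.02 to -1.55, with errors of 0.445 to 0.487 and adjustment over all 19962 genes. The other alternatives gave 7 to 13, and single libraries left out gave 8 to 11. The region value of Tmem65 turned negative in all 6 combinations of genotype and treatment under 2 settings. In APOE3 DD mice it was -0.0328 with no low-count filter and -0.1131 scaled to the negative probe, and in APOE4 DC mice it was -1.468 and -1.522. The other values were -0.24 to -0.32 with no filter and -0.28 to -0.34 scaled to the negative probe, and none passed. The cause was not tested, but these settings also moved the median of all tested genes by up to 1.68 and 1.75 on the log2 scale. The region values of Coa5 and Fdx2 in APOE4 DC mice ran from -2.33 to -0.26 and from -2.81 to -0.66 over the alternatives. Of 803 alternative values, 70 turned sign with neither value past the threshold. No paired analysis was possible because the replicate numbers only name libraries in accession order and no label ties regions to animals. Depth limits Tmem65 most, with a median of 7 counts per library.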
